A study of Canis lupus familiaris with 29 samples.

Results

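Canine PPGLs with a high level of FOS were compared with PPGLs with a low level, to describe which genes run with the acute stress response in these tumors. The tumors were chosen by FOS itself, measured as CPM, the count of a gene scaled to the total of all counts of the sample. Of the 19 PPGLs among 29 samples, the 9 with the highest FOS CPM are called FOS-high tumors and the 9 with the lowest FOS-low tumors. The 1 tumor in the middle of the ranking was left out, so that 18 tumors were compared, and 10 normal adrenal medullas (NAMs), which the ranking did not use, served as background. PPGLs arise from the catecholamine-producing chromaffin cells; the tissue came from client-owned dogs at surgery or directly after euthanasia and was either snap-frozen or put in RNAlater. The NAMs came from healthy research dogs and were snap-frozen. The labels do not give the age of the dogs or the handling of each tumor, so their part was not tested. The authors had split the PPGLs into group 1 and group 2 by principal components of the same expression data.

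FOS is a subunit of AP-1, a transcription factor in which a FOS family protein pairs with a JUN family protein. Its gene belongs to the immediate early genes, which a cell transcribes within minutes of a stimulus from factors that are already present, and whose messages decay quickly. In chromaffin cells these genes are known to respond to nerve input, calcium entry and growth factors, with MAP kinases carrying much of the signal.

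FOS (ENSCAFG00000017040, CanFam3.1 chromosome 8, 48331026 to 48333467) was at 284 to 575 CPM (median 409 CPM) in FOS-high tumors and at 2.00 to 228 CPM (median 49.2 CPM) in FOS-low tumors. These values set the groups and were not tested. At the border of the ranking, PPGL group 2, sample 1 held 284 CPM, the tumor left out (PPGL group 2, sample 7) 267 CPM and PPGL group 1, sample 5 held 228 CPM, so there was no wide gap at the border. NAMs were at 5.01 to 55.8 CPM (median 12.0 CPM), and 6 of the 9 FOS-low tumors lay at or below the highest NAM.

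**Figure D1:**
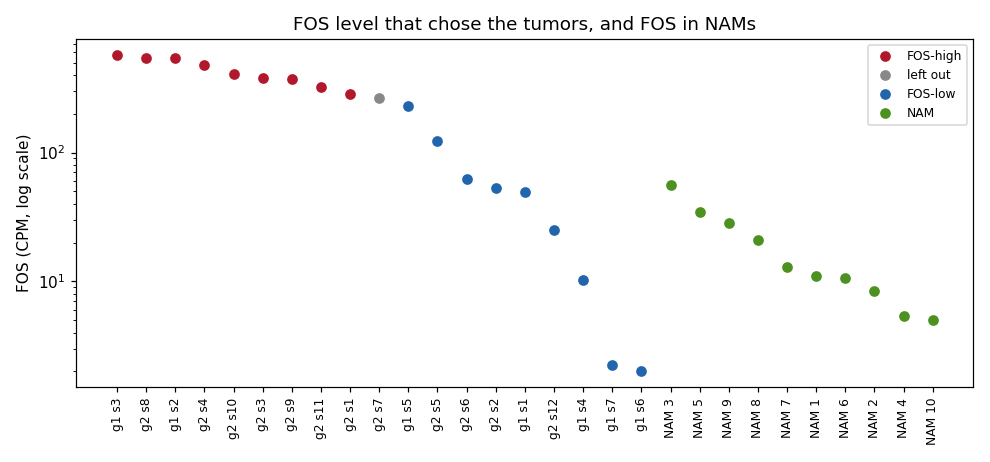
FOS level in CPM (log axis) in each tumor in the order of the ranking, with g1 and g2 for PPGL group 1 and 2 and s for the sample number, and in each NAM. FOS-high tumors lie at 284 CPM or more and NAMs at 55.8 CPM or less.

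Total counts were 18208718 to 24569667 in FOS-high tumors, 18493540 to 31919833 in FOS-low tumors and 19258054 to 35918182 in NAMs. The difference in mean total between the tumor sets did not pass an exact permutation test (two-sided, p = 0.321, n = 9 and 9). The mitochondrially encoded share of counts was 5.91% to 13.0% (median 10.4%) in FOS-high and 2.82% to 15.9% (median 5.68%) in FOS-low tumors. Its means differed by 2.13 percentage points (exact permutation test, two-sided, p = 0.222) and its medians by 4.70 (the same exact test, p = 0.0636), and its part in the results was not tested. The exact permutation test of means gave p = 0.811 for the ribosomal protein share and p = 0.204 for the number of genes detected. FOS-high tumors comprised 2 of group 1 and 7 of group 2, and FOS-low tumors 5 and 4 (Fisher's exact test, two-sided, p = 0.335).

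Some tumors stood apart in chromaffin markers. DBH, the enzyme that makes noradrenaline, was at 2275 CPM or more in every PPGL. CHGB, a protein of the secretory granules, was at 32.7 CPM in PPGL group 1, sample 7 and at 7174 CPM or more in the others. DDC and TH, enzymes of catecholamine synthesis that were picked after their values had been seen, were low in 2 of the tumors compared: DDC was at 0.295 CPM and TH at 11.1 CPM in PPGL group 1, sample 3, and DDC at 0.376 CPM and TH at 2.26 CPM in PPGL group 1, sample 5. Of these 3 tumors sample 3 was FOS-high and samples 5 and 7 were FOS-low. In an alternative chosen after seeing the data, 14 genes were higher without the 3 tumors, 12 of them among the 19 described next.

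FOS-high tumors had higher levels of some other immediate early genes, feedback inhibitors and NF-kB targets. FOSB, ZFP36, EGR3, IER2, JUNB and DUSP1 had the smallest FDR-adjusted p-values, with log2 FCs of 2.23 to 4.22. Of 14169 genes tested with edgeR's quasi-likelihood test, 19 were higher at an FDR-adjusted p below 0.05, which is 0.134% of the genes tested. By the same test 0 genes were lower (0%), against 574 lower and 982 higher at an unadjusted p below 0.05. DESeq2's Wald test gave 206 higher and 22 lower genes, and the Mann-Whitney U-test 0 in either direction. Since FOS was measured in the same libraries, these p-values tell how closely a gene follows the FOS ranking. In 8 genes (0.0565% of those tested) every FOS-high tumor lay above every FOS-low tumor: FOSB, JUNB, EGR1, EGR3, KLF4, ZFP36, DUSP1 and a gene without a symbol.

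The count of higher genes depended on single tumors. With each of the 18 tumors left out in turn it was 8 to 30, and 10 tumors moved it over 1.5 times: it was 30 without PPGL group 1, sample 2, 8 without PPGL group 1, samples 4 or 7, or PPGL group 2, samples 6 or 12, 9 without PPGL group 1, sample 6, or PPGL group 2, samples 4 or 5, and 11 without PPGL group 1, sample 1, or PPGL group 2, sample 1. FOSB, EGR3, ZFP36, IER2, JUNB, DUSP1, NR4A1 and ENSCAFG00000050003 passed in all 18 of these fits. With log2 FOS as a continuous covariate over the tumors 12 genes passed, of which 8 were among the 19: FOSB, ZFP36, IER2, JUNB, DUSP1, NR4A1, CCN1 and KLF4, while EGR3 and ENSCAFG00000050003 missed the threshold. With the fibroblast marker score as a covariate, chosen after seeing the data, FOSB, EGR3, ZFP36, IER2 and JUNB passed, and DUSP1, NR4A1 and ENSCAFG00000050003 did not. With PPGL group as a covariate 6 genes passed, namely FOSB, EGR3, ZFP36, IER2, JUNB and DUSP1, and in group 2 tumors alone 2, FOSB and NR4A1.

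Among the AP-1 subunits FOSB and JUNB were higher. FOSB (ENSCAFG00000004443, chromosome 1, 110087036 to 110092818), a close relative of FOS, was at 89.6 to 295 CPM (median 126 CPM) in FOS-high tumors and at 1.54 to 22.6 CPM (median 4.87 CPM) in FOS-low tumors. The sets did not overlap (log2 FC 4.03 ± 0.50 SE, FDR-adjusted p = 0.00135, n = 9 and 9 as for all genes below). JUNB (ENSCAFG00000028848, chromosome 20, 49359399 to 49360442), a partner of the FOS proteins, was at 297 to 961 CPM (median 415 CPM) in FOS-high tumors and at 21.8 to 150 CPM (median 119 CPM) in FOS-low tumors. It did not overlap either (log2 FC 2.39 ± 0.35 SE, FDR-adjusted p = 0.00464). All 9 tested subunits other than FOS, with the uncertain JUN entry described below among them, had a log2 FC above 0, with a median of 1.11, but 2 passed. The median was 0.66 with PPGL group as a covariate, and 7 of 9 were above 0 with the leukocyte marker score (0.75) and 7 of 9 with the fibroblast marker score (0.93) as a covariate, the latter chosen after seeing the data. Without a covariate, the median over all genes tested was -0.02, and 47.3% lay above 0. FOSL2 was at 12.1 to 505 CPM (median 260 CPM) against 10.3 to 182 CPM (median 63.9 CPM), with overlap (log2 FC 1.80 ± 0.67 SE, FDR-adjusted p = 0.308). JUND (log2 FC 0.63 ± 0.23 SE, FDR-adjusted p = 0.316) and ATF3 (log2 FC 1.41 ± 0.70 SE, FDR-adjusted p = 0.482) did not pass either. JUN was listed at 0.900 to 2.98 CPM in FOS-high and 0.528 to 1.86 CPM in FOS-low tumors, a level so low for this gene that it is uncertain whether the entry measures it, and no difference is read from it. BATF was not found by name, and FOSL1 did not pass the low-count filter.

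Of 18 other immediate early transcription factors tested, 4 were higher and all had a log2 FC above 0 (median 2.14). EGR3 (ENSCAFG00000009272, chromosome 25, 34591863 to 34594346), a zinc finger factor of the EGR family, was at 2.83 to 32.1 CPM (median 5.88 CPM) in FOS-high tumors. In FOS-low tumors it was at 0.146 to 0.973 CPM (median 0.519 CPM), without overlap (log2 FC 4.22 ± 0.54 SE, FDR-adjusted p = 0.00135). Its lowest FOS-low value equals 3 counts, taken as the floor, so the size of this log2 FC rests on low counts. IER2 (ENSCAFG00000023155, chromosome 20, 49072234 to 49072902), a nuclear protein, was at 22.4 to 152 CPM (median 68.8 CPM) against 4.43 to 23.7 CPM (median 13.1 CPM). 8 of 9 FOS-high tumors lay above the highest FOS-low tumor (log2 FC 2.67 ± 0.37 SE, FDR-adjusted p = 0.00218). The Krüppel-like factor KLF4 (ENSCAFG00000002797, chromosome 11, 62882767 to 62928251) was at 4.91 to 17.7 CPM (median 7.61 CPM) against 0.270 to 4.10 CPM (median 1.82 CPM), separated by a small gap (log2 FC 2.35 ± 0.42 SE, FDR-adjusted p = 0.0243). The orphan nuclear receptor NR4A1 (ENSCAFG00000007338, chromosome 27, 2891053 to 2955655) was at 56.6 to 828 CPM (median 483 CPM) against 12.8 to 170 CPM (median 37.8 CPM), with a log2 FC of 3.19 ± 0.53 (SE, FDR-adjusted p = 0.0149). Its lowest FOS-high tumor, PPGL group 1, sample 2, lay within the FOS-low range. EGR1 was at 433 to 1278 CPM (median 626 CPM) against 7.27 to 316 CPM (median 75.1 CPM) without overlap, but missed the threshold (log2 FC 2.73 ± 0.58 SE, FDR-adjusted p = 0.0708), as did EGR2 (log2 FC 3.59 ± 0.72 SE, FDR-adjusted p = 0.0595). SRF, which binds the FOS promoter, and MYC overlapped widely, with log2 FCs of 0.25 ± 0.19 and 0.48 ± 0.62. The value of MYC depended on the FOS-low tumor PPGL group 1, sample 7, at 495 CPM against 23.2 to 160 CPM in the other FOS-low tumors; without it the log2 FC was 1.29. With log2 FOS as a continuous covariate the slope of MYC was -0.03. When single tumors were left out, KLF4 passed in 8 of 18 such fits, those without PPGL group 1, samples 1, 2, 3, 5 or 6, or PPGL group 2, samples 3, 8 or 9 (over the 18 fits log2 FC 2.14 to 2.60, FDR-adjusted p at most 0.0669).

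The immediate early effectors are products that act on messages, matrix and signals. All 23 tested had a log2 FC above 0 (median 2.08) and 4 passed. The median was 1.27 without PPGL group 2, sample 11, 1.34 with the leukocyte marker score as a covariate and 1.18 with the fibroblast score, with 1 member past the test in each of these covariate fits. ZFP36 (ENSCAFG00000005530, chromosome 1, 113816273 to 113818065), which binds AU-rich messages and speeds their decay, was at 91.9 to 419 CPM (median 164 CPM) in FOS-high tumors and at 9.54 to 60.2 CPM (median 22.9 CPM) in FOS-low tumors, without overlap (log2 FC 3.17 ± 0.41 SE, FDR-adjusted p = 0.00135). CCN1 (ENSCAFG00000020276, chromosome 6, 62443675 to 62445994), a matrix protein, was at 29.8 to 548 CPM (median 86.9 CPM) against 2.60 to 39.5 CPM (median 12.4 CPM), and 8 of 9 FOS-high tumors lay above the FOS-low range (log2 FC 3.40 ± 0.61 SE, FDR-adjusted p = 0.0243). BTG2 (ENSCAFG00000009450, chromosome 38, 70452 to 72976), an antiproliferative gene, was at 15 to 182 CPM (median 34.9 CPM) against 2.10 to 26.6 CPM (median 6.37 CPM), with 7 of 9 above that range (log2 FC 3.11 ± 0.56 SE, FDR-adjusted p = 0.0243). PTGS2 (ENSCAFG00000013762, chromosome 7, 19668082 to 19674903), the inducible prostaglandin synthase, was at 0.202 to 140 CPM (median 23.0 CPM) against 0.162 to 4.48 CPM (median 1.03 CPM), with a log2 FC of 4.79 ± 0.93 (SE, FDR-adjusted p = 0.0405). It was lowest among FOS-high tumors in PPGL group 1, sample 2 and highest in PPGL group 2, sample 11. When single tumors were left out, CCN1 missed the threshold without PPGL group 1, samples 1, 4, 6 or 7, or PPGL group 2, samples 5, 6 or 12 (over the 18 fits log2 FC 2.68 to 3.75, FDR-adjusted p at most 0.0669). BTG2 passed in 7 of 18 such fits, those without PPGL group 1, samples 1, 2 or 3, or PPGL group 2, samples 8, 9, 10 or 11 (over the 18 fits log2 FC 2.77 to 3.50, FDR-adjusted p at most 0.0709). PTGS2 passed in 4 of 18 such fits, those without PPGL group 1, samples 2 or 3, or PPGL group 2, samples 2 or 8 (over the 18 fits log2 FC 4.16 to 5.29, FDR-adjusted p at most 0.0961). IER3 did not pass (log2 FC 2.08 ± 0.42 SE, FDR-adjusted p = 0.0625).

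Of 14 MAP kinase feedback inhibitors tested, 2 were higher, 12 had a log2 FC above 0 and the median was 0.46, which was 0.70 with PPGL group as a covariate, 1.11 in group 2 tumors alone and 0.36 with the fibroblast score as a covariate, where DUSP1 and ERRFI1 missed edgeR's threshold. DUSP1 (ENSCAFG00000029826, chromosome 4, 39588339 to 39590514), a phosphatase that switches MAP kinases off, was at 150 to 550 CPM (median 228 CPM) in FOS-high tumors and at 21.2 to 104 CPM (median 53.4 CPM) in FOS-low tumors. The sets did not overlap (log2 FC 2.23 ± 0.34 SE, FDR-adjusted p = 0.00568). ERRFI1 (ENSCAFG00000019676, chromosome 5, 61622550 to 61636148), an inhibitor of the EGF receptor, was at 10.5 to 131 CPM (median 30.0 CPM) against 3.60 to 14.0 CPM (median 6.34 CPM), with 7 of 9 FOS-high tumors above the FOS-low range (log2 FC 2.69 ± 0.49 SE, FDR-adjusted p = 0.0243). When single tumors were left out, ERRFI1 missed the threshold without PPGL group 1, samples 1, 4, 6 or 7, or PPGL group 2, samples 1, 4, 5, 6 or 12 (over the 18 fits log2 FC 2.21 to 2.83, FDR-adjusted p at most 0.0709). DUSP6, another phosphatase of this kind, did not pass (log2 FC 0.91 ± 0.31 SE, FDR-adjusted p = 0.273). Of 20 upstream kinases and FOS promoter factors 0 passed, 0 had an unadjusted p below 0.05 by edgeR, and the median was 0.01. STAT3, the most abundant of them, was at 125 to 315 CPM (median 218 CPM) against 108 to 426 CPM (median 188 CPM), with wide overlap.

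**Figure D2:**
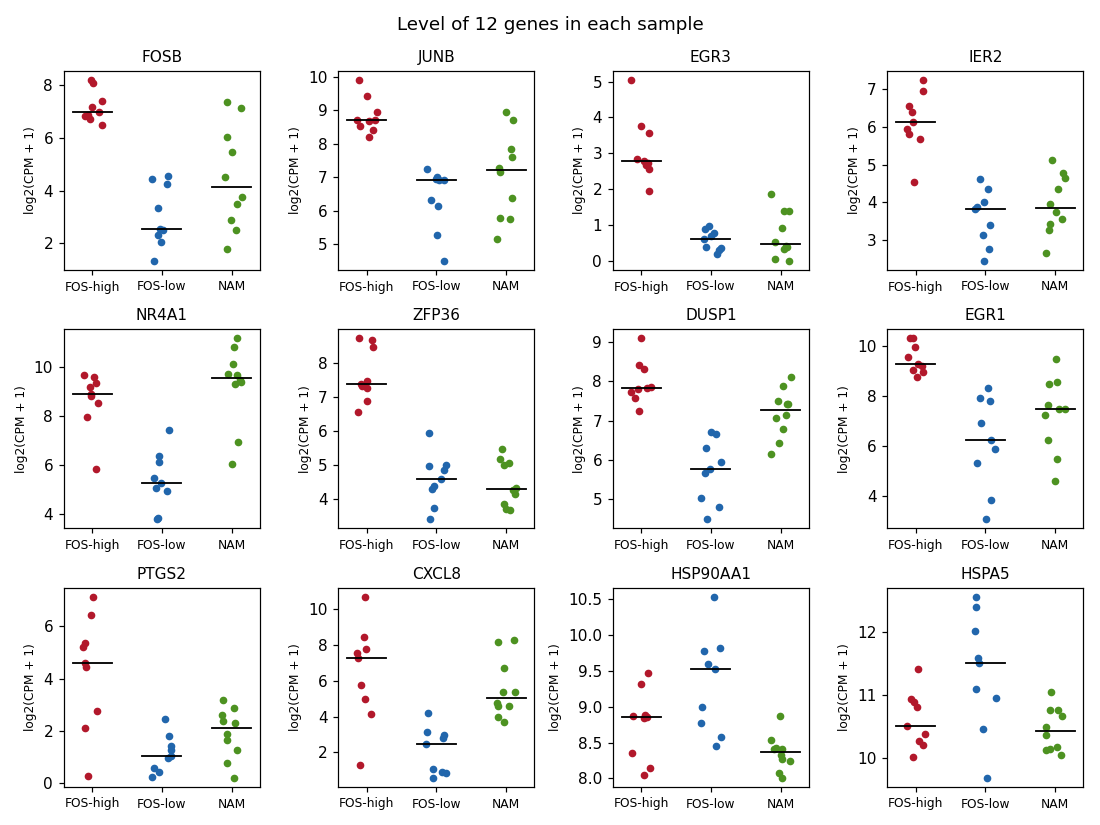
Level of 12 genes as log2(CPM + 1), with 1 point for each of the 9 FOS-high tumors, 9 FOS-low tumors and 10 NAMs and a line at the median. FOSB, with FOS-high tumors at 89.6 to 295 CPM and FOS-low tumors at 1.54 to 22.6 CPM, does not overlap between the tumor sets.

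NF-kB targets and cytokines, genes of inflammation, lay in the same direction: all 15 tested had a log2 FC above 0 (median 2.50) and 3 passed. TNFAIP3 (ENSCAFG00000000267, chromosome 1, 30251059 to 30261001), an inhibitor of NF-kB, was at 3.33 to 109 CPM (median 35.2 CPM) in FOS-high tumors and at 1.51 to 7.42 CPM (median 4.03 CPM) in FOS-low tumors (log2 FC 3.28 ± 0.59 SE, FDR-adjusted p = 0.0243). The adhesion receptor ICAM1 (ENSCAFG00000031460, chromosome 20, 50818715 to 50827914) was at 6.92 to 346 CPM (median 56.0 CPM) against 3.08 to 18.2 CPM (median 9.24 CPM), with a log2 FC of 3.47 ± 0.65 (SE, FDR-adjusted p = 0.0300). The neutrophil-attracting chemokine CXCL8 (ENSCAFG00000003029, chromosome 13, 62434422 to 62438354) was at 1.41 to 1665 CPM (median 153 CPM) against 0.487 to 17.1 CPM (median 4.55 CPM), with a log2 FC of 5.96 ± 1.16 (SE, FDR-adjusted p = 0.0405). For each of the 3 genes 7 of 9 FOS-high tumors lay above the FOS-low range, and PPGL group 1, sample 2 was the lowest. When single tumors were left out, TNFAIP3 passed in 8 of 18 such fits, those without PPGL group 1, samples 2, 3 or 5, or PPGL group 2, samples 3, 8, 9, 10 or 11 (over the 18 fits log2 FC 2.84 to 3.44, FDR-adjusted p at most 0.0709). ICAM1 passed in 6 of 18 such fits, those without PPGL group 1, samples 2, 3 or 5, or PPGL group 2, samples 3, 8 or 10 (over the 18 fits log2 FC 2.93 to 3.63, FDR-adjusted p at most 0.0874). CXCL8 passed in 3 of 18 such fits, those without PPGL group 1, samples 2 or 3, or PPGL group 2, sample 8 (over the 18 fits log2 FC 4.66 to 6.51, FDR-adjusted p at most 0.0963). The median of the list was 1.17 with the leukocyte marker score as a covariate, 0.83 with the fibroblast score, 1.80 with PPGL group and 2.16 with the cortex score, and 0 members passed edgeR's test in each of these fits, against 13 at an unadjusted p below 0.05 without a covariate.

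Higher genes outside the lists were CCL7, ACTB and a pair of genes without a symbol. The chemokine CCL7 (ENSCAFG00000018348, chromosome 9, 38993911 to 39010483) was at 14.0 to 320 CPM (median 78.5 CPM) against 2.54 to 21.8 CPM (median 8.98 CPM), with a log2 FC of 3.58 ± 0.65 (SE, FDR-adjusted p = 0.0255). ACTB (ENSCAFG00000016020, chromosome 6, 12418932 to 12462845), a cytoskeletal actin, was at 216 to 532 CPM (median 377 CPM) against 88.6 to 263 CPM (median 184 CPM), with a log2 FC of 1.15 ± 0.22 (SE, FDR-adjusted p = 0.0396). 6 and 8 of 9 FOS-high tumors lay above the FOS-low range in CCL7 and ACTB. ENSCAFG00000042676 (chromosome 13, 62534590 to 62643441), 6063 bases from PPBP, was at 7.43 to 215 CPM (median 22.9 CPM) against 0.595 to 6.28 CPM (median 3.17 CPM), without overlap (log2 FC 3.73 ± 0.67 SE, FDR-adjusted p = 0.0243). ENSCAFG00000050003 (chromosome 26, 38851092 to 38884869), 8468 bases from LIPA, was at 1.52 to 11.7 CPM (median 5.09 CPM) against 0.203 to 1.57 CPM (median 0.726 CPM), with a log2 FC of 2.83 ± 0.47 (SE, FDR-adjusted p = 0.0154). These last genes were named after their values had been seen. When single tumors were left out, CCL7 passed in 7 of 18 such fits, those without PPGL group 1, samples 2 or 3, or PPGL group 2, samples 1, 2, 3, 8 or 10 (over the 18 fits log2 FC 3.22 to 3.83, FDR-adjusted p at most 0.0713). ACTB passed in 5 of 18 such fits, those without PPGL group 1, samples 2 or 5, or PPGL group 2, samples 2, 8 or 10 (over the 18 fits log2 FC 1.05 to 1.22, FDR-adjusted p at most 0.0952). ENSCAFG00000042676 missed the threshold without PPGL group 1, samples 1, 4, 6 or 7, or PPGL group 2, samples 4, 5, 6 or 12 (over the 18 fits log2 FC 2.76 to 3.90, FDR-adjusted p at most 0.0669).

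Heat shock genes did not share the direction of the immediate early genes. Of 17 tested 0 passed, 1 had a log2 FC above 0, and the median was -0.48, with 5 at an unadjusted p below 0.05 by edgeR. The stress-inducible HSPA1A and HSPA1B, and HSP90AB1, HSPD1 and HSPE1, were not found by name, so the list lacks main members of this response. The chaperone HSP90AA1 was at 263 to 710 CPM (median 463 CPM) in FOS-high tumors and at 348 to 1481 CPM (median 736 CPM) in FOS-low tumors, with wide overlap (log2 FC -0.68 ± 0.29 SE, FDR-adjusted p = 0.385). The FOS-low tumor PPGL group 2, sample 12 had a summed level of the list of 6944 CPM, against at most 3506 CPM in the other tumors. Of 20 genes of the unfolded protein and integrated stress response 0 passed, 8 had an unadjusted p below 0.05 by edgeR and the median was -0.43. HSPA5, a chaperone of the endoplasmic reticulum, was at 1034 to 2729 CPM (median 1456 CPM) against 827 to 6050 CPM (median 2921 CPM), again with overlap (log2 FC -0.97 ± 0.36 SE, FDR-adjusted p = 0.308).

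In the other response lists 0 members passed by edgeR when all 18 tumors were compared without a covariate. Of the glucocorticoid-responsive genes 1 passed with log2 FOS as a continuous covariate and 1 without PPGL group 1, sample 2. All 13 glucocorticoid-responsive genes had a log2 FC above 0 (median 1.02), 6 of them at an unadjusted p below 0.05. That direction was not kept by all of them elsewhere: 10 were above 0 with the leukocyte score as a covariate (median 0.35), 11 with the fibroblast score (0.40) and 10 without PPGL group 2, sample 11 (0.69). The clock gene PER1 was at 89.6 to 185 CPM (median 143 CPM) against 35.7 to 117 CPM (median 57.4 CPM), with a log2 FC of 1.12 ± 0.24 (SE, FDR-adjusted p = 0.0708), and FKBP5 had a log2 FC of 0.09 ± 0.37. The p53 targets (5 of 10 above 0, median 0.03), hypoxia-inducible genes (10 of 16, 0.10) and cAMP and activity-induced genes (7 of 15, 0.00) had medians near that of all genes tested. For the cAMP and activity-induced genes and the hypoxia-inducible genes this did not hold in all settings. Of the cAMP and activity-induced genes 13 of 17 were above 0 in PPGL group 2 only (median 0.65). Without the 2 tumors with the lowest FOS, an alternative chosen after seeing the data, it was 11 of 15 (0.30). With the cortex score as a covariate it was 6 of 15 (-0.21). Hypoxia-inducible genes had 12 of 16 above 0 in PPGL group 2 only (0.30) and 8 of 16 without PPGL group 2, sample 11 (-0.02). In each of these fits 0 members of the list passed. Mitosis genes had a median of -0.66, which was 0.62 without PPGL group 1, sample 7 and 0.35 with PPGL group as a covariate. MKI67, a marker of dividing cells, was at 349 CPM in that tumor and at 10.7 to 48.9 CPM in FOS-high tumors.

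**Figure D3:**
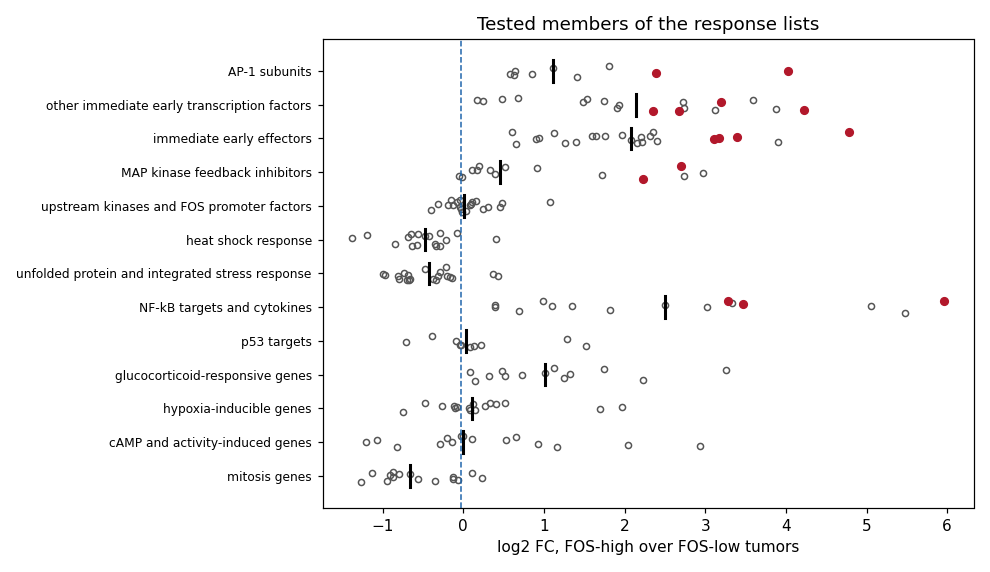
log2 FC of FOS-high over FOS-low tumors for each tested member of the response lists, with 1 point per gene, filled where the FDR-adjusted p was below 0.05, a bar at the median of the list and a dashed line at the median of all genes tested (-0.02). The medians are 2.14 for the other immediate early transcription factors and -0.48 for the heat shock response.

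Markers of other cell types had log2 FCs above 0 in several lists, with 0 of their members past edgeR's test. In bulk samples, fewer cells of a type and less RNA per cell cannot be told apart. Fibroblast markers had a log2 FC above 0 in 8 of 8, all at an unadjusted p below 0.05, with a median of 2.56, which was 1.29 without PPGL group 2, sample 11. With the leukocyte score as a covariate the direction turned, to 1 of 8 above 0 (median -0.18). Their summed level was 419 to 23770 CPM (median 964 CPM) in FOS-high tumors and 173 to 2925 CPM (median 589 CPM) in FOS-low tumors, with wide overlap and the highest value in PPGL group 2, sample 11. The most abundant was COL3A1, a collagen, at 101 to 7395 CPM (median 206 CPM) against 55.1 to 767 CPM (median 222 CPM). Leukocyte markers were above 0 in 13 of 13 (median 1.30, 12 at an unadjusted p below 0.05), and summed to 361 to 3428 CPM (median 1017 CPM) against 501 to 1547 CPM (median 807 CPM). Their most abundant gene by name, CD79A, had a log2 FC of 0.08 ± 0.35. Its sign depended on PPGL group 1, sample 2, at 1337 CPM, and without this tumor the log2 FC was -0.38. The CD79A entry was at 179 CPM or more in every PPGL and NAM, so it is uncertain whether it measures B cells. It was kept in the sums and in the leukocyte score. The macrophage gene C1QC had a log2 FC of 1.17 ± 0.43, while the B cell marker MS4A1, picked after its values had been seen, was at 1.58 CPM or less in every PPGL. Neutrophil markers were above 0 in 4 of 6, with a median of 1.60, and S100A8 was the most abundant. That median was 0.38 without PPGL group 2, sample 11 and 0.05 with the leukocyte score as a covariate. It was 2.78 without PPGL group 1, sample 7, with 5 of 6 above 0, and 2.52 in PPGL group 2 only, with 7 of 7. The part of these cells in the results was not tested beyond fits with a marker score as a covariate. These left 7 higher genes for the leukocyte score and, chosen after seeing the data, 5 for the fibroblast score. Genes that no longer passed in either fit differed in how far the log2 FC moved. With the leukocyte and the fibroblast score it was 3.30 and 3.17 for BTG2 and 2.22 and 2.25 for KLF4, close to the values above. It was lower than above for ERRFI1 (1.93 and 1.98) and CXCL8 (4.75 and 4.25).

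Adrenal cortex markers were above 0 in 9 of 9, with a median of 1.26, which was -0.10 with PPGL group as a covariate. They summed to 199 to 32470 CPM (median 3393 CPM) against 83.3 to 11079 CPM (median 1267 CPM), with CYP17A1 as the most abundant gene. With the cortex score as a covariate 6 genes were higher. Chromaffin markers were above 0 in 4 of 15 (median -0.17), endothelial markers in 9 of 12 (0.22) and pericyte and smooth muscle markers in 8 of 10 (0.92, or 0.30 without PPGL group 2, sample 11). The chromaffin median was -0.43 without PPGL group 1, sample 2 and -0.11 without PPGL group 2, sample 11. The endothelial median was 0.11 without PPGL group 1, sample 7. Without the 2 tumors with the lowest FOS, chosen after seeing the data, it was -0.02, with 6 of 12 above 0. With the leukocyte score as a covariate the directions of these lists turned as well. It gave 10 chromaffin markers above 0 (0.35), 3 endothelial markers (-0.22) and 4 pericyte and smooth muscle markers (-0.21). Schwann and sustentacular markers were above 0 in 0 of 6 (-0.86) and adipocyte markers in 0 of 4 (-1.13). Few erythroid (4 of 4 above 0), platelet (2 of 2), mast cell (0 of 2) and liver and kidney markers (1 of 2) were tested.

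By edgeR 0 of 14169 genes had an interaction between FOS level and PPGL group, with 773 at an unadjusted p below 0.05. The smallest FDR-adjusted p was 0.875. As 2 FOS-high tumors were of group 1, this test cannot show that the difference was the same in both groups. NAMs gave values that the ranking had not used. Of 13168 genes tested, 0 rose (0%) and 0 fell (0%) with log2 FOS over the 10 NAMs by edgeR. At an unadjusted p below 0.05 there were 131 rising and 108 falling genes, together a smaller share than the 0.05 that chance alone gives. The smallest FDR-adjusted p in NAMs was 0.9999. The slope (log2 level per unit of log2 FOS) was 1.06 ± 0.23 (SE) for JUNB, 1.09 ± 0.25 for EGR1 and 0.38 ± 0.71 for FOSB, and none of them passed. Of the immediate early effectors 21 of 22 had a slope above 0 (median 0.26) and of the other immediate early transcription factors 13 of 15 (0.24), against 49.9% of all genes tested (0.00). The AP-1 subunits had 7 of 8, the MAP kinase feedback inhibitors 11 of 14 and the NF-kB targets and cytokines 10 of 14. Of the cAMP and activity-induced genes 14 of 14 had a slope above 0, of the chromaffin markers 12 of 15, of the heat shock genes 13 of 16 and of the glucocorticoid-responsive genes 12 of 13. The shares were lower in the upstream kinases and FOS promoter factors (8 of 20), the unfolded protein and integrated stress response (9 of 19), p53 targets (5 of 10), mitosis genes (4 of 11) and Schwann and sustentacular markers (0 of 6), and also in leukocyte (2 of 12), endothelial (1 of 12) and fibroblast markers (2 of 6). Hypoxia-inducible genes had 11 of 15 above 0, adrenal cortex markers 6 of 9 and pericyte and smooth muscle markers 4 of 10. NAMs were at 2.42 to 166 CPM (median 17.1 CPM) for FOSB and at 64.1 to 2311 CPM (median 761 CPM) for NR4A1, and 0 of the 9 FOS-high tumors exceeded the highest NAM for NR4A1. For EGR3 and ZFP36 all 9 did, while for FOSB, JUNB, DUSP1 and EGR1 the FOS-high tumors overlapped the NAM range. ICAM1 was at 26.8 to 99.8 CPM in NAMs, above every FOS-low tumor. The share of all genes in which all 9 FOS-high tumors exceeded the highest NAM was not counted, so nothing is read from EGR3 and ZFP36 doing so.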

How the data were processed

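The authors deposited the raw count of each Ensembl gene over its exons, made from stranded mRNA libraries aligned to CanFam3.1. Their notes list FastQC, STAR, Picard and HTSeq, while the deposited counts carry the name featureCounts, so the counting tool is uncertain. The strand setting was not found, so values of overlapping genes are uncertain. Of 30951 genes listed, 18239 carried a symbol. Counts of the 18 tumors were filtered with edgeR's filterByExpr (minimum count 10, minimum total 15) and normalized by TMM. FOS was then taken out and the other genes were tested with edgeR's quasi-likelihood F test (prior count 0.125), with Benjamini-Hochberg correction over all of them and a threshold of 0.05. The SE was derived from the F statistic. NAMs were fitted with log2(CPM + 1) of FOS as the slope. Levels are CPM without TMM. In PPGLs 3 counts, taken as the floor for counting error alone, are 0.0940 to 0.165 CPM. Lists were written by hand and got no test. Genes named are FOS, tested members of the AP-1, immediate early and feedback lists, up to 4 called members of each other list or, with none called, the 2 with the highest mean CPM, and up to 10 called genes per direction outside the lists that have a symbol, a mean of at least 5 TMM-normalized CPM in the higher set and a lowest tumor above the median of the lower set. The members and lists were chosen with earlier results of these data known. Alternatives were other normalizations, filters, tests, thresholds and prior counts, covariates, group 2 alone, other rankings of FOS, the sample number as a block and each sample left out. The steps were tested on simulated data. R 4.3.3, edgeR 4.0.16, DESeq2 1.42.0, limma 3.58.1, Python 3.11.15, pandas 2.3.3, scipy 1.17.1 and matplotlib 3.10.9 were used. A planned description of promoter motifs was left out for lack of promoter sequences.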

Additional observations from a re-analysis of the deposited data

Results flagged for a closer look

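In 162 sets of values (genes named and measures of the libraries, in FOS-high tumors, FOS-low tumors and NAMs) the highest and the lowest sample were compared with the nearest other sample, and 13 lay far from the rest; chance gives about 1 in 20 sets. Levels of genes are log2(CPM + 1). Among FOS-high tumors, PPGL group 1, sample 2 was low in NR4A1 (5.85, the next 7.94), high in CD79A (10.39, the next 8.80) and had a ribosomal protein share of 6.60%, the next being 3.02%. PPGL group 2, sample 11 was high in CSF3R (8.70, the next 3.49).

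Among FOS-low tumors, PPGL group 1, sample 7 was high in TOP2A (9.65, the next 6.10) and MKI67 (8.45, the next 5.10). The same tumor was low in CHGB (5.07, the next 12.81), PENK (0.22, the next 9.66) and ADM (2.11, the next 8.43). PPGL group 2, sample 12 was high in CSF3R (5.48, the next 2.38), and PPGL group 1, sample 5 had a total count of 31919833, the next being 24744763. NAM 4 was high in SRF (5.28, the next 4.63) and NAM 10 in COL1A1 (7.01, the next 6.05).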

How the results depend on the processing

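The 19 genes higher in FOS-high tumors became 206 with DESeq2's Wald test, 0 with the Mann-Whitney U-test, 33 at an FDR-adjusted p below 0.1, 6 with PPGL group and 6 with the adrenal cortex score as a covariate, 7 with the leukocyte score, 2 in group 2 alone, 9 with FOS ranked by TMM-normalized CPM and 12 with log2 FOS as a continuous covariate. Chosen after seeing the data, the fibroblast score as a covariate gave 5 and leaving out the 2 tumors with the lowest FOS 7. Other normalizations and filters gave 18 to 21. The 0 of the Mann-Whitney U-test is bounded by the lowest p that ranks of 9 and 9 tumors allow, and no conclusion is drawn from it. With each tumor left out the count was 8 to 30. Lower genes were 22 with DESeq2's Wald test, 15 with continuous FOS and 0 to 1 with a tumor left out, the 1 being without PPGL group 1, sample 3. With the sample number as a replicate block 0 genes were higher. The numbers name different dogs, and the 3 pairs across the sets had correlations of -0.205, -0.152 and -0.0816. In that fit the difference between the sets rests on these 3 pairs alone, so no conclusion is drawn from its 0. The ribosomal protein share differed by 0.251 percentage points in means and by -0.234 in medians. The cause of these changes was not tested. NAM counts were 0 under every alternative run, and no gene named as higher changed sign in the fits run.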
